A study of Danio rerio with 2 samples.

Results

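Broad open regions are ATAC-seq peaks of at least 1000 bp on the 25 numbered chromosomes of the zebrafish. They were chosen by width alone, the distance between the start and the end that the deposited peak list gives, and they numbered 1236 of the 238369 peaks in the list, or 0.529% of the 233815 peaks on numbered chromosomes. The remaining 232579 peaks of these chromosomes served for comparison, together with their widest class, the 27522 peaks of at least 500 bp, here called medium peaks. ATAC-seq uses the Tn5 transposase to cut and tag accessible DNA, and a peak is a stretch where cuts are enriched. In animal genomes, most peaks mark a single regulatory element whose factors displace a nucleosome or so. Longer accessible stretches are commonly found at the promoters of active genes, which often lie in CpG islands, and where enhancers lie side by side.

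The cells were sorted precursors of the retinal pigment epithelium (RPE), the pigmented layer that supports the photoreceptors, from zebrafish embryos at 23 hpf (hours post fertilization). All carried the transgene tg(Enh-1_bHLHe40:GFP), in which an enhancer element of the transcription factor gene bhlhe40 drives GFP in RPE precursors, and the study's methods state that GFP-positive cells were taken by flow cytometry from whole embryos. No other treatment or allele is named, the data comprised 2 libraries of this group, RPE replicate 1 and RPE replicate 2, and the study calls them biological replicates. Its question was how the RPE and the neural retina part from each other. The neural retina libraries were not analysed here, so no group could be compared with another and the label of the cells was not checked against a second cell type. The peak list has as many entries as the study reports for its RPE and neural retina cells together. Peak widths can therefore also rest on neural retina cells. The study notes that the same element is active at later stages in the ciliary marginal zone and in neural crest cells around the eye. It therefore expects at most a minor contamination of the RPE cells taken at 23 hpf. The study also describes its sorted population as very continuous and gives a lower bound for purity that is short of complete.

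Total counts in peaks were 23996755 in replicate 1 and 19653966 in replicate 2. Values are given as CPM, counts per 1000000 counts of the library total, and as CPM per kb, the CPM divided by the peak width in kb. The broad peaks held 77 to 2645 counts in replicate 1 (median 692.5) and 57 to 2230 counts in replicate 2 (median 542), so none fell under 10 counts. The other peaks had medians of 42 and 39 counts, and 14.6% and 12.2% of them had fewer than 10 counts. Relative counting error was therefore smaller for broad peaks than for most other peaks, though not negligible for the broad peaks with fewest counts. Intervals below cover counting error only. The width of a peak was itself set from sequenced reads by the peak caller, so width and counts were not independent measures, and differences in level between width classes were described without a test.

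Widths of the broad peaks reached 2929 bp and had their median at 1114 bp and their 90th percentile at 1371 bp. They covered 1.44 Mb, which was 2.06% of the length covered by peaks of the numbered chromosomes. Width classes thinned out steadily. There were 564 peaks of 1000 to 1099 bp, 418 of 1100 to 1249 bp, 191 of 1.25 kb to 1499 bp, 57 of 1500 to 1999 bp and 6 of at least 2000 bp. At the limit itself, 10 peaks were exactly 1000 bp wide, with a mean CPM per kb of 5.86 to 43.7 and a median of 22.4, and 8 peaks were 1 bp narrower, with 11.1 to 28.4 and a median of 15.6. The first broad peaks of 1000 bp in the order of the list were peak107422 (chr2:42729039-42730038, 20.2 and 25.3 CPM per kb in replicates 1 and 2) and peak167464 (chr3:50531092-50532091, 23.3 and 20.9 CPM per kb). The first of the narrower ones were peak9355 (chr1:55160148-55161146, 17.4 and 18.9 CPM per kb) and peak185179 (chr5:44054832-44055830, 13.6 and 16.8 CPM per kb). Values on the 2 sides of the limit overlapped.

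Broad peaks carried many more counts than other peaks and were also denser. Their median was 28.9 CPM in replicate 1 and 27.6 CPM in replicate 2, with a mean of 28.2 ± 0.906 (SD, n = 2). The medians of the other peaks were 1.75 and 1.98 CPM, so the broad peaks had 16.5-fold and 13.9-fold higher medians. Much of this was length, since a longer peak collects more counts. Per kb of peak, broad peaks had medians of 25.2 and 24.4 CPM per kb (mean 24.8 ± 0.548, SD, n = 2) beside 6.80 and 7.72 CPM per kb for the other peaks. The density was thus 3.70-fold higher in replicate 1 and 3.16-fold higher in replicate 2 (mean 3.43 ± 0.380, SD, n = 2). Against the medium peaks, which had 17.6 and 17.1 CPM per kb, the broad peaks were 1.43-fold denser in both libraries. The gap to the other peaks was thus far smaller for those nearest in width.

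Single broad peaks spanned a wide range of density. Replicate 1 ran from 3.18 to 95.3 CPM per kb with a 10th and a 90th percentile of 10.9 and 45.9, and replicate 2 ran from 2.84 to 100.5 with percentiles of 11.8 and 41.8. By mean CPM, all 1236 broad peaks lay above the median of the other peaks, 1177 (95.2%) lay above the bound of their top 10% and 555 (44.9%) above the bound of their top 1%. By mean CPM per kb the same counts were 1205 (97.5%), 725 (58.7%) and 50 (4.05%). The broad peaks were therefore almost all among the peaks with most counts, whereas few of them were among the densest 1%. Of the 2338 peaks in the top 1% of numbered chromosomes, 498 (21.3%) were broad by CPM and 50 (2.14%) by CPM per kb. Both shares were above the 0.529% that broad peaks made up of all peaks there. The top 1% by CPM per kb had a median width of 521 bp. The densest peak of all, 597 bp wide, reached a mean of 698 CPM per kb (555 in replicate 1 and 841 in replicate 2). The densest broad peak reached a mean of 97.4. At the other end, 31 broad peaks were less dense than the median of the other peaks.

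Density rose with width among short peaks, and class medians still rose among broad peaks up to 1999 bp. Median CPM per kb climbed from 2.92 and 4.58 in replicates 1 and 2 for peaks of 100 bp to 13.5 and 13.2 for peaks of 400 to 499 bp, and to 22.1 and 22.1 for peaks of 900 bp to just under 1 kb. Within the broad peaks it moved from 24.2 and 23.4 at 1000 to 1099 bp to 28.6 and 28.5 at 1500 to 1999 bp. The 6 peaks of at least 2000 bp had lower medians of 17.7 and 17.5. The class of 1000 to 1099 bp was thus a small step above the class just below it, with ranges between the 10th and 90th percentiles that overlapped almost entirely (11.1 to 43.3 beside 9.44 to 44.7). Across peaks, the rank correlation of width with mean CPM per kb was 0.084 over the 1236 broad peaks and 0.655 over the other 232579. Most broad peaks lay in a narrow range of width (median 1114 bp, 90th percentile 1371 bp), which lowers such a correlation. The 2 values are therefore not like for like. Peaks of a library share its depth and the caller's choices, so these are descriptions.

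**Figure D1:**
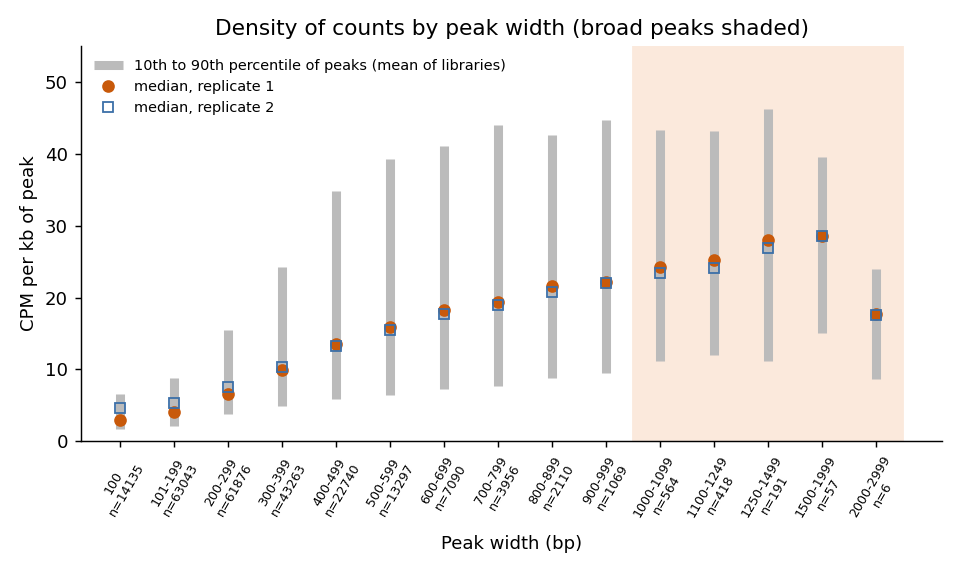
Median CPM per kb (vertical axis) of peaks in each width class in bp (horizontal axis, with the number of peaks), for RPE replicate 1 (filled circles) and replicate 2 (open squares), with grey bars from the 10th to the 90th percentile of single peaks and the broad classes shaded. Medians climb from under 5 at 100 bp to over 28 at 1500 to 1999 bp and are lower for the 6 widest peaks.

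With 0.529% of the peaks of numbered chromosomes, broad peaks held 3.91% of the counts of replicate 1 and 3.74% of those of replicate 2. The exact 95% binomial intervals were 3.905 to 3.921 and 3.727 to 3.744. The mean was 3.82% ± 0.126 (SD, n = 2). The intervals did not overlap, although the shares were close.

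The peak with the highest mean CPM was peak64051 (chr16:11259578-11261002, 1425 bp), with 110 CPM in both replicates, 77.3 and 77.5 CPM per kb, and 27 other peaks within 50 kb. The next, peak29676 (chr12:22438312-22439324, 1013 bp), had 96.6 and 100.8 CPM and was the densest broad peak, with 95.3 CPM per kb in replicate 1 and 99.6 in replicate 2. These differences between the libraries did not pass the test described below. Next came peak214216 (chr8:1200332-1201657, 1326 bp) with 96.4 and 92.3 CPM, and peak37234 (chr13:13813271-13814726, 1456 bp) with 92.0 and 92.7 CPM. The latter lies across an end of the gene locus that the study's tables give to eif2ak3, which encodes PERK, a kinase of the endoplasmic reticulum stress response. The fifth was unlike the others. At peak79163 (chr17:39991142-39992270, 1129 bp), replicate 1 had 62.9 CPM and replicate 2 had 113 CPM, with −0.85 as the log2 ratio (Benjamini-Hochberg adjusted p = 4.68e-67, exact binomial test), and only 8 other peaks lay within 50 kb. The second densest broad peak, peak148065 (chr24:17055118-17056159, 1042 bp), had 93.9 CPM per kb in replicate 1 and 72.8 in replicate 2 (adjusted p = 2.09e-11).

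The widest peaks were not the densest. The widest of all, peak200632 (chr7:2625445-2628373, 2929 bp), had 7.74 CPM per kb in replicate 1 and 10.4 in replicate 2, close to the median of ordinary peaks, and only 3 other peaks within 50 kb. The second widest, peak176085 (chr4:50060025-50062292, 2268 bp), had 5.86 and 10.7 CPM per kb and 2 other peaks within 50 kb. Both were called higher in replicate 2 (adjusted p = 5.24e-05 and 2.91e-13). The other 3 of the 5 widest were denser and stood among more peaks. These were peak91894 (chr19:4939518-4941655, 2138 bp, 26.4 and 26.5 CPM per kb), peak210721 (chr7:54267123-54269170, 2048 bp, 18.6 and 17.6) and peak81360 (chr18:604058-606077, 2020 bp, 23.2 and 19.5), with 22, 18 and 33 other peaks within 50 kb.

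The least dense broad peaks had few counts for their width. The lowest, peak101345 (chr2:7865676-7866683, 1008 bp), had 77 and 71 counts, or 3.18 and 3.58 CPM per kb. It was followed by peak214146 (chr8:658311-659651, 1341 bp) with 3.60 and 3.57 CPM per kb, and by peak158840 (chr25:36245531-36246551, 1021 bp) with 4.98 and 2.84 CPM per kb. Each was less dense than the median of the other peaks, and peak101345 and peak158840 had a neighbour 10 and 31 bp away, whereas the nearest to peak214146 was 11852 bp away.

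Few of the broad peaks could be tied to a gene, because no annotation of danRer10, the genome build of the counts, was used. Gene names below are those that the study's own tables give to a peak or to the locus around it. Those tables were read in part and list regions and genes that the study tied to differences between the RPE and the neural retina, so these peaks are no sample of the broad peaks. From lists of RPE and pigment, keratin and desmosome, and retina genes, 5 genes had a broad peak linked in this way, and none of them was a retina gene. No link was found for most genes of the RPE and keratin lists either, among them mitfa, otx2 and tyr. A missing link does not show that a gene lacks a broad peak. A difference between the lists was not tested. Among RPE and pigment genes, bhlhe40, a basic helix-loop-helix repressor that is also the source of the reporter element, had peak24355 (chr11:35535288-35536336, 1049 bp) with 73.1 CPM per kb in replicate 1 and 63.5 in replicate 2, rank 10 of all broad peaks by density. A further bhlhe40 peak, peak24393 (chr11:35628898-35630014, 1117 bp), had 44.0 and 42.6 CPM per kb. The transgene carries a copy of a bhlhe40 element in addition to the native site, and reads from the 2 cannot be told apart in these counts. Which of these peaks, if any, holds that element was not tested.

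tead1b encodes a TEAD factor, the DNA-binding partner of the co-activators Yap and Taz, and 2 broad peaks lay inside its locus. At peak212399 (chr7:65667650-65668741, 1092 bp), the libraries had 34.0 and 32.8 CPM per kb, above the median of the broad peaks. At peak212380 (chr7:65602713-65603720, 1008 bp), they had 15.5 and 15.2 CPM per kb, below it. The tead1b peaks thus differed in density from each other, while the replicates of each were close (adjusted p = 0.725 and 1). The melanosome transporter gene slc45a2, which is needed for melanin synthesis, had peak124053 (chr21:19408544-19409679, 1136 bp) across an end of its locus, with 28.8 and 25.1 CPM per kb. This lay near the median of the broad peaks.

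For the keratin and desmosome list, peak94946 (chr19:22897063-22898132, 1070 bp) lay inside the locus of pleca, a gene of plectin, which links keratin filaments to cell junctions. It had 44.0 CPM per kb in replicate 1 and 35.2 in replicate 2, a difference that passed the test (log2 ratio 0.32, adjusted p = 0.000165). The intermediate filament gene krt8 was given peak137410 (chr23:10355606-10356712, 1107 bp), with 20.6 and 17.2 CPM per kb and an adjusted p of 0.0584. Across these 7 peaks of listed genes, the density ran from below the broad median at peak212380 to rank 10 at peak24355.

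Other peaks with a gene name were chosen after their values were seen. Among the 50 broad peaks with most CPM, peak101942 (chr2:11963855-11964962) inside the greb1l locus had 62.5 and 53.7 CPM per kb, and peak109579 (chr2:56006085-56007853) across an end of the locus of jund, which encodes a subunit of the AP-1 transcription factor, had 38.5 and 37.9. Of the other genes in the study's peak lists, pcdh15a, a protocadherin of sensory cells, had peak42536 with 30.5 and 32.1 CPM per kb, and iqgap1, a cytoskeletal scaffold, had peak209959 with 21.1 and 20.9. Lower values were found at peak142675 of the retinoic acid receptor gene rarga (13.6 and 15.4 CPM per kb), peak173561 of decorin, dcn (14.1 and 11.9), peak78211 of the helix-loop-helix inhibitor id2a (13.4 and 10.8) and peak147566 of the transcriptional co-activator eya1 (9.03 and 8.95). All 4 lay below the medians of the broad peaks, and each was above the median of the other peaks in both libraries.

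**Figure D2:**
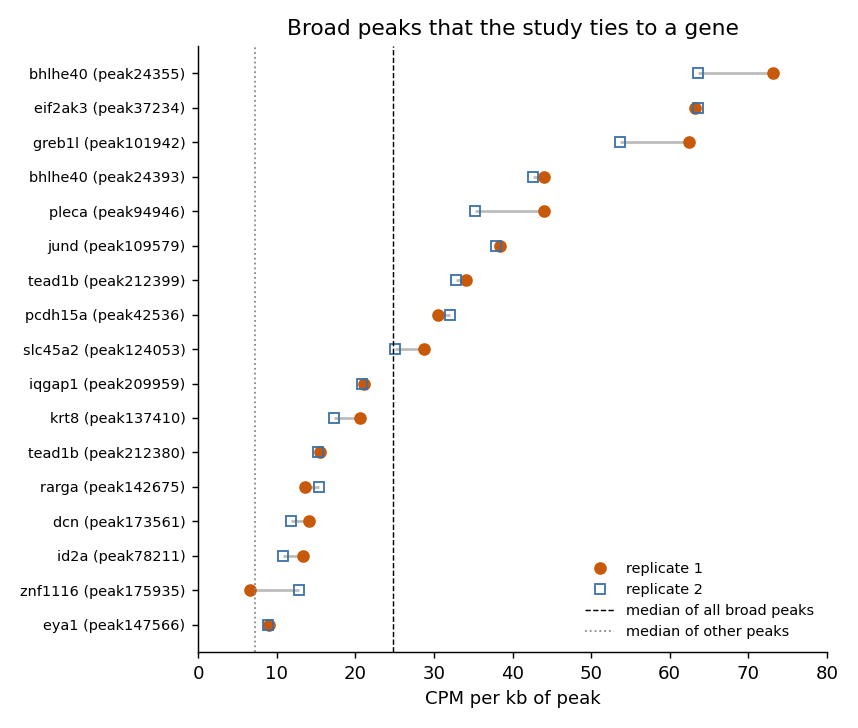
CPM per kb (horizontal axis) of broad peaks with a gene name (vertical axis, with the peak name). Filled circles are RPE replicate 1 and open squares replicate 2, joined by a line. Names are those that the study's tables give to the peak itself or to a gene locus that the peak overlaps. The dashed and dotted lines are the medians of all broad peaks and of the other peaks, 24.8 and 7.26 as means of both libraries. The replicates lie close together at most peaks. The widest gaps on this axis are at peak24355 of bhlhe40 (73.1 and 63.5), the pleca peak (44.0 and 35.2) and the greb1l peak (62.5 and 53.7). The znf1116 peak, with 6.58 and 12.9, differs most as a ratio.

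The replicates were close at broad peaks. The log2 ratio of replicate 1 to replicate 2, after adding 0.5 counts to each library, had a median of 0.06 and an SD of 0.25 over the broad peaks and ran from −0.98 to 0.80, so no broad peak differed 2-fold. Over the other peaks the median was −0.10 and the SD 0.78, and 15.1% differed more than 2-fold. The medium peaks had a median of 0.03, an SD of 0.34 and 0.908% beyond 2-fold. Fewer counts alone widen such ratios, and the other peaks had far fewer. A ratio above 0 was found at 745 broad peaks (60.3%), beside 42.7% of the other peaks and 53.4% of the medium peaks, which leaned the same way.

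A two-sided exact binomial test set the counts of each peak against the library totals, and p-values were adjusted by Benjamini-Hochberg over all 238310 peaks with counts, at a threshold of 0.05. The test compares 2 libraries, not conditions, and takes counting error as the only error. Of all peaks, 13.3% were called, 5.09% as higher in replicate 1 and 8.21% as higher in replicate 2. Of the 1236 broad peaks, 402 (32.5%) were called, 265 higher in replicate 1 and 137 higher in replicate 2. High counts let small differences pass, and the called broad peaks had a median absolute log2 ratio of 0.34 and a smallest of 0.16. The share called in the neighbouring width class from 900 bp up was 30.9%, so the share at broad peaks lay near that of peaks of similar width. With TMM scaling, which moves every log2 ratio up by 0.09, 437 broad peaks were called higher in replicate 1 and 70 in replicate 2, beside a background of 14.1% of all peaks called (7.97% and 6.17%). With DESeq2 size factors the counts were 443 and 68, beside 14.3% of all peaks (8.12% and 6.14%).

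**Figure D3:**
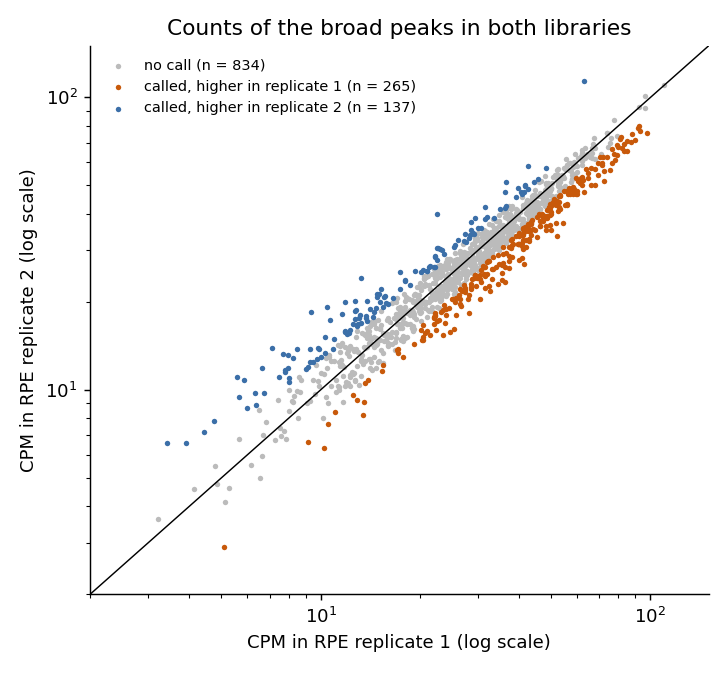
CPM of each broad peak in RPE replicate 1 (horizontal axis) and replicate 2 (vertical axis), both on log scales, with the line of equality. Grey points are the 834 peaks with no call, orange the 265 called higher in replicate 1 and blue the 137 called higher in replicate 2 by the exact binomial test, with blue points more frequent at low CPM and orange points at high CPM.

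The direction of the difference between libraries moved with density. Among the 412 broad peaks with the lowest mean CPM per kb (3.38 to 19.6), the median log2 ratio was −0.03, and 45 were called higher in replicate 1 and 85 higher in replicate 2. In the middle 412 peaks the median was 0.06 and the calls 75 and 32, and in the 412 densest (30.7 to 97.4) it was 0.10 and the calls 145 and 20. Denser broad peaks were thus more often higher in replicate 1. TMM scaling adds 0.09 to each of these medians, which turns that of the least dense peaks positive and leaves their order as it was. The calls used library totals, and calls by density are not given for other peaks or other scalings. Of all peaks at any density, 5.09% were called higher in replicate 1 and 8.21% higher in replicate 2. The rank correlation of density and ratio was 0.262 over the broad peaks and 0.264 over the other peaks, so the trend was not particular to the broad class. Log2 ratios were more spread over the other peaks (SD 0.78 beside 0.25), so these correlations do not compare the size of the trend.

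The same direction appeared when broad peaks were grouped by how many other peaks lay within 50 kb, a grouping chosen after the data were seen. The 51 broad peaks with fewer than 10 such neighbours had 12.4 and 14.2 CPM per kb in replicates 1 and 2 and a median log2 ratio of −0.12, and 0 of them were called higher in replicate 1 and 15 in replicate 2. With 10 to 19 neighbours, 389 broad peaks had a median ratio of −0.00, and 51 and 69 were called. With 20 to 29 neighbours, 546 had a median of 0.07, and 110 and 47 were called. The 250 broad peaks with at least 30 neighbours had 29.5 and 28.0 CPM per kb and a median ratio of 0.17, and 104 were called higher in replicate 1 and 6 in replicate 2. Scaled by library totals, broad peaks in sparse surroundings were therefore less dense and leaned to replicate 2. Those in crowded surroundings were denser and leaned to replicate 1. The other peaks moved in the same direction, from a median ratio of −0.36 with fewer than 10 neighbours to 0.08 with at least 30, so the pattern was not particular to broad peaks. With fewer than 10 neighbours, 29.4% of broad, 25.4% of medium and 15.1% of other peaks were called. Medium peaks had 38 calls higher in replicate 1 and 242 in replicate 2, and other peaks 195 and 2367. With 10 to 19 neighbours, the shares were 30.8%, 22.5% and 12.7%. Medium peaks had 635 calls higher in replicate 1 and 1287 in replicate 2, and other peaks 2051 and 8699. With 20 to 29 neighbours, the shares were 28.8%, 23.3% and 12.4%. Medium peaks had 1977 and 898 calls there, and other peaks 5309 and 6482. With at least 30 neighbours, the shares were 44%, 31.4% and 15.7%. Medium peaks then had 1547 and 197 calls, and other peaks 4145 and 1483. The shift of 0.09 by TMM scaling turns the median of the class with 10 to 19 neighbours positive. It takes up most of the −0.12 of the sparsest broad peaks, whose median stays barely negative. Calls by neighbours are given for library totals only. Density moved with the neighbours, and its part in the result was not tested.

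The 3 highest and the 3 lowest ratios were at peaks with at most 363 counts in a library, although peak79163, with 1510 and 2230 counts, had a ratio larger in size than the highest. The 3 highest were peak158840 (122 and 57 counts, log2 ratio 0.80, adjusted p = 0.00761), peak77063 (chr17:28993975-28995314, 322 and 161 counts, 0.71, adjusted p = 2.85e-05) and peak134050 (chr22:32316233-32317414, 246 and 124 counts, 0.70, adjusted p = 0.000447). The 3 lowest were peak68453 (chr16:36389551-36390657, 134 and 217 counts, −0.98, adjusted p = 1.74e-07), peak157174 (chr25:27231930-27233596, 225 and 363 counts, −0.98, adjusted p = 2.15e-12) and peak175935 (chr4:36113670-36114752, 171 and 274 counts, −0.97, adjusted p = 3.46e-09). All p-values are from the exact binomial test with Benjamini-Hochberg adjustment. peak175935 lies inside the locus of znf1116, a zinc finger gene, and had 3 other peaks within 50 kb.

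Broad peaks were found on all 25 numbered chromosomes, from 26 on chromosome 4 to 91 on chromosome 5, with a median of 47. Over all chromosomes there were 5.29 broad peaks per 1000 peaks. Chromosome 5 had 7.20 per 1000 (exact 95% binomial interval 5.80 to 8.83), chromosome 12 had 3.63 (2.45 to 5.18) and chromosome 4 had 3.498 (2.29 to 5.12). The interval of chromosome 5 did not reach the value over all chromosomes from above, and those of chromosomes 12 and 4 did not reach it from below. These intervals take peaks as independent, although some broad peaks lie close together. The chromosomes were picked as the extremes of 25 without adjustment, so this is no test. All neighbours in the order of chromosomes had overlapping intervals. Chromosome 3 followed chromosome 5 with 6.48 (5.05 to 8.20). The order depended on the width limit, and among peaks of at least 1.25 kb chromosome 19 was highest and chromosome 16 lowest. Per Mb up to the last peak, the value was 0.922 over all chromosomes, 1.27 on chromosome 5 and 0.339 on chromosome 4.

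Density differed more between chromosomes than between the libraries. The broad peaks of chromosome 4 had the lowest medians, 16.2 and 15.0 CPM per kb, and those of chromosome 10 the highest, 30.9 and 30.2. The remaining 23 chromosomes lay between these values in both libraries. The median log2 ratio of the libraries was above 0 on all 25 chromosomes, from 0.01 on chromosome 8 to 0.14 on chromosome 22. Chromosome 4, whose long arm in zebrafish is rich in repeats and poor in open chromatin, had 18 broad peaks among 6198 peaks in its first 30 Mb, or 2.90 per 1000, and 5 among 652 peaks between 30 and 70 Mb, or 7.67 per 1000. The low rate of the chromosome was thus that of its first 30 Mb, and the sparse region, with few peaks of any width, had a rate above that of all chromosomes that rests on 5 broad peaks.

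**Figure D4:**
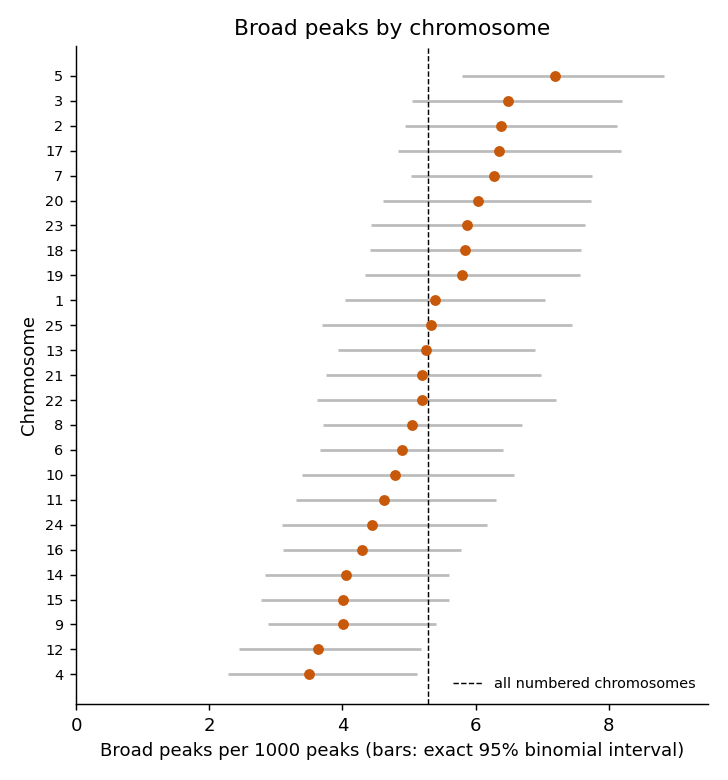
Broad peaks per 1000 peaks (horizontal axis) on each numbered chromosome (vertical axis, ordered by the value), with exact 95% binomial intervals as bars that cover counting error only. The dashed line is the value of 5.29 over all numbered chromosomes, and the chromosomes run from 7.20 on chromosome 5 to 3.498 on chromosome 4.

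Broad peaks lay near chromosome ends more often than other peaks did. Within 1 Mb of the first base or of the last peak of a chromosome lay 114 of them (9.22%), beside 5.09% of the other peaks and 5.10% of the medium peaks. Broad peaks there had medians of 26.8 and 26.6 CPM per kb, little above those of all broad peaks. These regions were chosen after the data were seen, and no test was run on the difference.

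In windows of 1 Mb, 639 of the 1353 windows with any peak (47.2%) held no broad peak, 403 held 1 and 169 held 2. The richest, chromosome 1 from 39 to 40 Mb, held 7 broad peaks among 199 peaks. Windows with 6 were chromosome 5 from 0 to 1 Mb, chromosome 13 from 10 to 11 Mb, chromosome 17 from 37 to 38 Mb and chromosome 18 from 0 to 1 Mb. Neighbouring broad peaks on a chromosome were a median of 577 kb apart, from 1564 bp to 18.7 Mb.

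Broad peaks had another broad peak nearby somewhat more often than other peaks had one. Another broad peak lay within 50 kb of 204 of them (16.5%), while a broad peak lay within 50 kb of 10.9% of the other peaks and 13.4% of the medium peaks. The number of all other peaks within 50 kb differed little, with medians of 23, 21 and 23 for broad peaks, other peaks and medium peaks. No broad peak was without another peak within 50 kb. When broad peaks less than 50 kb apart were joined, 1032 stood alone, 166 formed 83 pairs, 30 formed 10 groups of 3, and 8 formed 2 groups of 4. One group of 4 spanned chr5:296663-425286 and held 41 peaks in all, and its broad peaks summed to 113 CPM in replicate 1 and 119 in replicate 2. The other spanned chr18:11126-57510 and held only 11 peaks, with sums of 150 and 145 CPM.

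The closest pair was peak6380 (chr1:39367264-39368459, 1196 bp) and peak6383 (chr1:39370024-39371025, 1002 bp), 1564 bp apart with 2 short peaks between them and both in the richest window. They had 59.5 and 53.1 CPM per kb in replicate 1 and 49.2 and 46.1 in replicate 2, and both were called higher in replicate 1 (adjusted p = 6.43e-05 and 0.0148). The second pair, peak98610 (chr19:42486493-42487498, 1006 bp) and peak98611 (chr19:42491016-42492373, 1358 bp), was 3517 bp apart with none between. The first of these had 46.3 CPM per kb in replicate 1 and 51.5 in replicate 2 (adjusted p = 0.0838), and the second had 62.5 and 52.4 (adjusted p = 4.12e-05). All 4 were well above the broad median in both libraries.

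The surroundings of broad peaks held fewer listed peaks close by than farther away. The nearest other peak was a median of 2005 bp away, beside 1446 bp for other peaks and 1673 bp for medium peaks, and it was 4 kb or more away for 28.2%, 17.99% and 18.9%. From 1 to 4 kb beyond their edges, broad peaks had 0.133 other peaks per kb, and from 10 to 50 kb they had 0.232, a ratio of 0.571. The ratio was 0.955 for other peaks and 0.831 for medium peaks, and the medium peaks had 0.190 and 0.229 peaks per kb near and far, so the far values of broad and medium peaks were alike. When only peaks that reached 10 counts in each of the libraries were counted, the ratios were 0.650, 0.991 and 0.910, in the same order. The gap was seen in the most and the least dense of the broad peaks alike, with 0.154 and 0.252 peaks per kb near and far for the densest 412 and 0.117 and 0.215 for the least dense 412. The profile was computed after the data were seen, and no test was run on it. It counts listed peaks only, so what the peak caller kept near a strong peak can shape it, which was not tested.

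Measured between centres, the other peaks around broad peaks numbered 0.112 to 0.153 per kb at 1.5 to 4.5 kb and 0.204 to 0.278 at 5 to 12 kb. Around other peaks the values were 0.181 to 0.219 and 0.214 to 0.226, and around medium peaks 0.159 to 0.217 and 0.240 to 0.258. The values thus rose near 5 kb around every class, and most around broad peaks. Only peaks that the caller listed are counted, and the part of its settings in this step was not tested. From 5 kb on, the values around broad peaks were above those around all other peaks except in the first of these bins. The peaks that flanked a broad peak directly were of ordinary width, with a median of 275 bp beside 261 bp for those that flanked other peaks. They were denser, with 10.8 and 11.2 CPM per kb in replicates 1 and 2 beside 6.79 and 7.70. Peaks that flanked medium peaks lay closer to these values, with 9.12 and 9.495 CPM per kb and a median width of 277 bp.

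**Figure D5:**
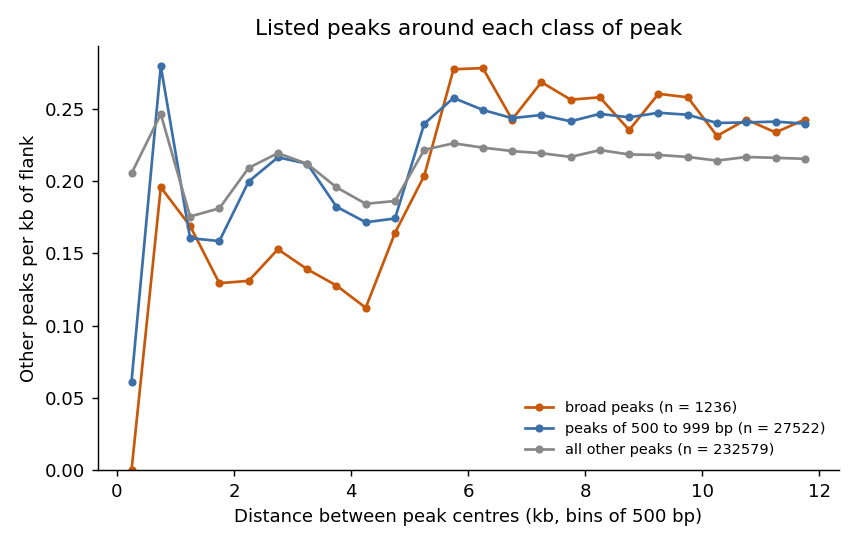
Other peaks per kb of flank (vertical axis) by distance between peak centres in kb (horizontal axis, bins of 500 bp), around broad peaks (orange), medium peaks (blue) and all other peaks (grey). Around broad peaks the values are 0.112 to 0.153 at 1.5 to 4.5 kb and 0.204 to 0.278 from 5 kb on, and the lowest bin is empty because a broad peak fills it.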

How the data were processed

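ATAC-seq was measured in 2 libraries of sorted RPE cells of 1 group, as the labels give them. By the methods of the study, the authors mapped paired reads to danRer10 with Bowtie2, removed duplicates with rmdup, moved read starts to the site of transposase binding and kept pairs with short inserts as nucleosome-free. MACS2 is named in the submitters' processing notes. The deposited values are raw counts per peak of a list shared by both libraries, not scaled for depth. The pooling of libraries for peak calling and the item counted (reads, cut sites or pairs) are not given in the sources used here. Should both ends of each pair have been counted, tests and intervals that assume counting error are too narrow. Removal of duplicates lowers strong peaks most. Short inserts favour nucleosome-free DNA. Widths, and with them the gaps between listed peaks, can depend on the pooling and on the merging of close summits. The gaps can also depend on which peaks the caller kept near strong ones. The study reports 238369 open regions from its RPE and neural retina cells at 23 hpf, the number of peaks in this list. Peaks and their widths can therefore also rest on neural retina libraries not analysed here.

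CPM used the total count in peaks. TMM factors (edgeR 4.0.16, 0.969 and 1.03) and DESeq2 1.42.0 size factors (1.07 and 0.935), in R 4.3.3, were used for scaling only. Exact binomial tests and exact 95% intervals were computed with Python 3.11.15, scipy 1.17.1, numpy 2.4.6 and pandas 2.3.3, and plots with matplotlib 3.10.9. The test was tested on 238369 simulated peaks (seed 11): it called 200 of 200 broad peaks raised 2-fold and 4 unchanged peaks, and 0 with none raised. The simulated counts held counting error only, the error that the test assumes, so few false calls were set in advance. The simulation checks the computation only. It says nothing of the calls between the real libraries, where no broad peak differed 2-fold.

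Regions named were the 5 broad peaks with most CPM, the 5 widest, the 3 with the highest and the 3 with the lowest CPM per kb, the 3 largest and 3 smallest ratios, the 2 closest pairs, the first 2 on either side of 1000 bp, and peaks of listed RPE, keratin and retina genes. Members and lists were chosen with earlier results of these data known. Alternatives were a width of at least 1.25 kb, a minimum of 10 counts in each library, other scalings, a pseudocount of 0.1, other windows, comparison with the medium peaks (at least 500 bp and under 1000 bp) only, leaving out chromosome 4 and leaving out each replicate. Positions refer to danRer10 and count from 1, and no sequence of that build was used.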

Additional observations from a re-analysis of the deposited data

Results flagged for a closer look

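Peaks of at least 1000 bp outside the numbered chromosomes entered no comparison, and their values are given here because they carried counts. On unplaced scaffolds, 41 of 4550 peaks were this wide and held 0.119% of all counts in replicate 1 and 0.114% in replicate 2 (mean 0.117% ± 0.00317, SD, n = 2). Their medians of 24.8 and 25.6 CPM per kb lay next to those of the broad peaks of numbered chromosomes. On the mitochondrial genome, 2 of 4 peaks were this wide and held 0.541% and 0.965% (mean 0.753% ± 0.300, SD, n = 2), with medians of 1003 and 1792 CPM per kb. Replicate 2 was thus the higher library at the mitochondrial peaks, while the scaffold peaks differed little.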

How the results depend on the processing

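No paired analysis was possible because the data hold 1 group. With a width of at least 1.25 kb, the mean of the median CPM was 39.4 in place of 28.2, the share of counts 1.02% in place of 3.82%, the number of called peaks 80 in place of 402 (fewer peaks enter by construction), the ratio of the highest to the lowest chromosome 4.64 (chromosomes 19 and 16) in place of 2.06 (chromosomes 5 and 4), and the share of broad peaks with another within 50 kb 5.12% in place of 16.5%. That share was 3.88% for windows of 10 kb and 28.96% for 100 kb. The log2 density of broad over other peaks, 1.77, was 1.498 for a minimum of 10 counts in each library and 0.51 against medium peaks only, and the difference in median library ratio, 0.155, was 0.0298 against that class. Per Mb in place of per 1000 peaks, the chromosome ratio was 3.74. The flank ratio of 0.571 was 0.650 with that minimum, an alternative added after the data were seen. Leaving out each replicate gave 27.6 to 28.9 CPM, a log2 density of 1.66 to 1.89 and a share of 3.74% to 3.91%. TMM factors and DESeq2 size factors called 507 and 511 broad peaks, 86.2% and 86.7% of them higher in replicate 1 in place of 65.9%. They called 14.1% and 14.3% of all peaks. Among called medium peaks, the share higher in replicate 1 was 80.5% and 80.9% in place of 61.5%. Among called other peaks it was 56.1% and 56.6% in place of 38.1%, so the shift was not particular to broad peaks. Other scalings of the level and the share, a pseudocount of 0.1 and leaving out chromosome 4 moved values by less than the replicate spread or 1.5 times. Depth limits most broad peaks little, with medians of 692.5 and 542 counts in replicates 1 and 2, and those with fewest counts (at least 57) more. The 2 libraries give no error beyond their own difference.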
